A study of Homo sapiens with 4 samples.

Results

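The subunits of the BAF chromatin remodelling complex were examined on Illumina bead arrays in U87 cells, a long-established line from a human glioblastoma. The 10 genes are SMARCA4, ACTL6A, SMARCB1, SMARCC1, SMARCE1, ARID1A, SS18, BCL7A, BCL7B and BCL7C, of 20045 named genes on the array. They were taken as all 21 probes whose platform annotation gives 1 of these symbols. The genes were selected on complex membership after the log2 differences between the groups had been seen, because a probe for SS18 and a probe for BCL7A lay far from 0. The differences of the 10 genes between the groups are therefore given as descriptions with their errors, and the count of calls from the fit over all probes is printed with nothing read from it. Cells of the first group were transfected with a synthetic mimic of the PIWI-interacting RNA piR-598. The other group received an NC oligo, a commercial control sold for use with microRNA inhibitors, so the control molecule was not made as a PIWI-interacting RNA. The agent RNAiMax, an oligo concentration of 25 nM and harvest at 24 h were common to all cells. Each group had 2 arrays, which the submitters call biological duplicates of the line. No separate passages are stated, so the errors measure only the spread between these samples, which may be technical. Whether a change in transcript level reaches the protein or the assembled complex was not measured.

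BAF complexes, the mammalian SWI/SNF family, use the energy of ATP to slide or evict nucleosomes and so open promoters and enhancers. In the canonical form, a core of SMARCC, SMARCD, SMARCB1 and SMARCE1 subunits carries an ATPase module. That module is built on SMARCA4 or its paralog SMARCA2, together with the actin-like protein ACTL6A, actin, SS18 and BCL7 proteins. ARID1A or ARID1B marks the canonical form, while ARID2 and PBRM1 mark the PBAF form and BRD9 with BICRA or BICRAL the non-canonical form. Many subunits are tumour suppressors, and neural cells exchange some of them for neuronal paralogs as they differentiate.

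The arrays read 47318 probes each. The mean deposited signal was 273.0 and 284.8 on the piR-598 mimic arrays and 305.8 and 300.0 on the NC oligo arrays, so unscaled signals of the 2 groups stand on slightly different scales. A detection p under 0.05, meaning a signal above nearly all negative controls of the same array, was reached by 19627 to 20324 probes per array. Of 8 glioma and astroglial markers, VIM, NES, CD44 and SOX9 were detected on all 4 arrays, whereas no probe for GFAP, S100B or SOX2 was detected on any. FABP7 was detected on 2 arrays. Among markers of other cell types, no probe for PTPRC, VWF, CDH5, KRT8, CDH1, RBFOX3, MBP or MOG was detected on any array, while EPCAM and SYP were detected on up to 3 arrays and PECAM1 on 1. The neuronal gene SNAP25 was detected on all 4 arrays, as were CD14 and AIF1. The highest signal was 458 for SNAP25, 117 for CD14 and 122 for AIF1. The summed signal of the neuronal markers was 649.9 and 733.0 on the mimic arrays and 774.6 and 778.5 on the NC oligo arrays. For the leukocyte and microglia markers it was 750.8 and 767.4 on the mimic arrays and 789.6 and 792.8 on the NC oligo arrays. The part of these marker levels in any result below was not tested.

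Transcripts of nearly all these subunits were detected in the cells. Of the 21 probes, 14 were detected on all 4 arrays, and these 14 covered 9 of the 10 genes. BCL7A was the exception: none of its 3 probes was detected on more than 2 arrays. A further 5 probes were detected on 1 to 3 arrays and 2 on none. The ARID1A gene shows how much depends on the probe. Its probe ILMN_1797341 was detected on all 4 arrays at 565 and 519 with the mimic, against 608 and 559 with the NC oligo. The other ARID1A probe, ILMN_1734496, was detected on no array and reached no more than 90.2 on any of them. The annotation ties these 2 probes to different transcript records of the gene.

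For the comparison, signals were background-corrected, quantile normalized and taken to log2. Probes detected on 2 or more arrays entered the fit, which left 17 probes covering all 10 genes. The comparison asks which transcripts differ after delivery of the piR-598 mimic. With the mimic minus the NC oligo, 9 of the 17 probes had a positive log2 difference and 8 a negative one. Their median was 0.00030, against 0.00067 over all 20188 tested probes. In limma's test over all tested probes, 0 of the 17 had an adjusted p under 0.05 (Benjamini-Hochberg), where the background was 0% of all tested probes. An unadjusted p under 0.05 was reached by 5.46% of all tested probes; no such count is read for the 10 genes, which were selected on the same differences. The arrays of the 2 groups did not overlap for 6 of the 17 probes, 4 higher and 2 lower with the mimic. Over all tested probes that share was 34.7%, or 17.1% higher and 17.6% lower with the mimic. The difference was larger than the gap between the replicate arrays of either group for 4 of the 17, against 23.3% of all tested probes. Those 4 were SS18 probe ILMN_1741782, both tested BCL7A probes and 1 of 2 SMARCB1 probes. The BCL7A probes, also among the 6, passed the detection filter only through the group in which they were brighter, so nothing is read from their place in these counts.

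**Figure D1:**
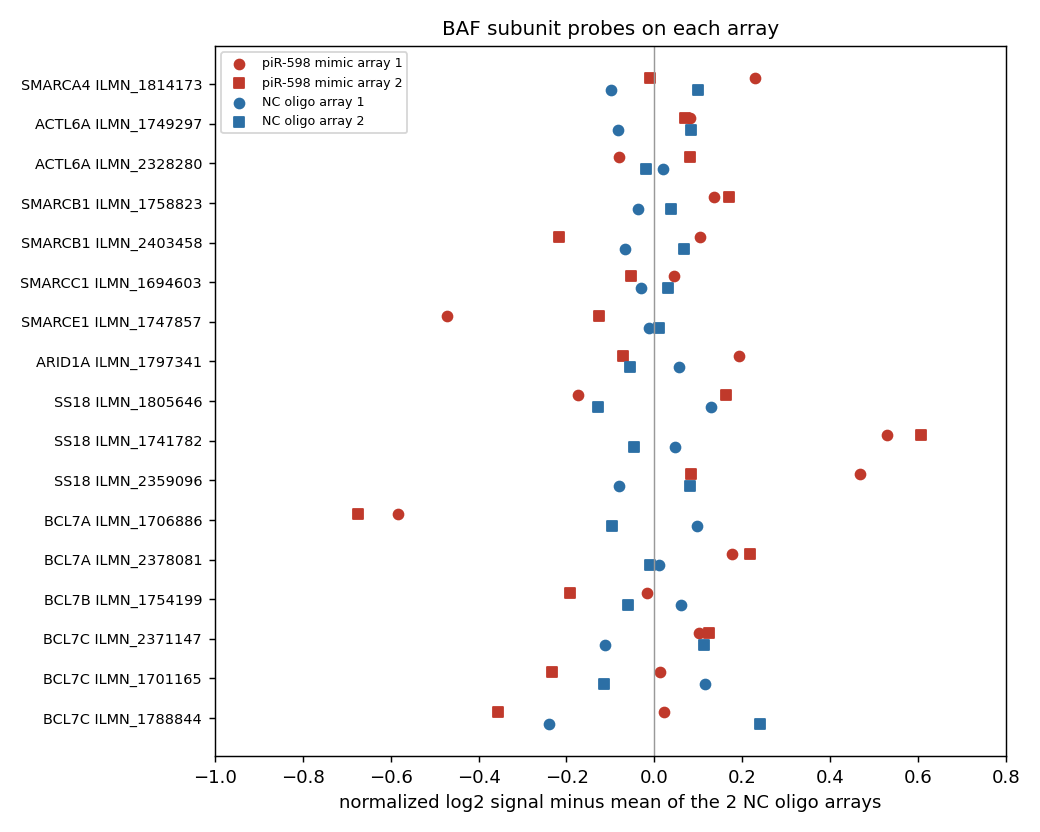
Normalized log2 signal of the 17 tested BAF subunit probes on each array, minus the mean of the 2 NC oligo arrays (red, piR-598 mimic arrays; blue, NC oligo arrays; circles, array 1; squares, array 2). For most probes the red and blue points are interleaved; SS18 probe ILMN_1741782 lies to the right on both mimic arrays and BCL7A probe ILMN_1706886 to the left.

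The replicate arrays set the scale on which these differences are read. Over the 17 probes the median absolute log2 difference was 0.18 between the 2 mimic arrays and 0.13 between the 2 NC oligo arrays. Across the groups, the 4 pairs made across treatment had medians from 0.13 to 0.17. By these medians, the BAF probes on mimic and control arrays were no further apart than the 2 mimic arrays were from each other. Some pairs across treatment were further apart than the 2 NC oligo arrays, and a median does not speak for single probes. Over all tested probes the same measure was 0.18 between the mimic arrays and 0.14 between the NC oligo arrays. For the 4 pairs across treatment it ran from 0.14 to 0.18, so this pattern was not particular to the BAF probes.

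SMARCA4, also called BRG1, is the motor subunit that hydrolyses ATP, and its only named probe had signals of 1077 and 980.0 with the mimic, against 1015 and 1126 with the NC oligo. After normalization its log2 values were 10.10 and 9.86 with the mimic, against 9.77 and 9.97 with the NC oligo. The lower mimic array lies between the control arrays, and the groups overlap. The log2 difference was 0.11 ± 0.16 (SE), and it was -0.01 when piR-598 mimic replicate 1 was left out. ACTL6A, an actin-like protein that binds the ATPase and is used by progenitor and proliferating cells, had 2 tested probes. Probe ILMN_1749297 had log2 values of 10.04 and 10.03 with the mimic, against 9.88 and 10.05 with the NC oligo, a difference of 0.07 ± 0.15 (SE). Probe ILMN_2328280 had 8.97 and 9.13 with the mimic, against 9.07 and 9.03 with the NC oligo. Its difference was 0.00030 ± 0.15 (SE), and the control arrays fell inside the range of the mimic arrays.

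Among the core subunits, SMARCE1 stood furthest from 0. SMARCE1 is an HMG-box protein of the core. Its probe gave signals of 249 and 324 with the mimic, against 371 and 370.4 with the NC oligo. The log2 values were 7.63 and 7.97 with the mimic, against 8.09 and 8.11 with the NC oligo. Both mimic arrays were below both controls, but mimic array 1 was much the lower of them. The difference of -0.30 ± 0.16 (SE) was smaller than the gap of 0.34 between the mimic arrays. Leaving out piR-598 mimic replicate 1 gave -0.13, and leaving out piR-598 mimic replicate 2 gave -0.47.

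SMARCC1, a scaffold subunit on which the core assembles, had log2 values of 9.14 and 9.05 with the mimic, against 9.07 and 9.13 with the NC oligo. The groups overlapped fully and the difference was -0.0044 ± 0.14 (SE). SMARCB1, the subunit lost in malignant rhabdoid tumours, was read by 2 probes that the annotation ties to the same transcript record. Probe ILMN_1758823 had 8.83 and 8.87 with the mimic, against 8.66 and 8.73 with the NC oligo, and its groups did not overlap. Probe ILMN_2403458 had 8.22 and 7.90 with the mimic, against 8.05 and 8.18 with the NC oligo, so there the mimic arrays enclosed the controls. The log2 differences were 0.15 ± 0.14 (SE) for the first probe and -0.06 ± 0.16 (SE) for the second, which differ in sign. ARID1A is the DNA-binding subunit that defines canonical BAF and is often mutated in cancer. Its detected probe had 9.09 and 8.82 with the mimic, against 8.95 and 8.84 with the NC oligo. The difference was 0.06 ± 0.16 (SE), and relative to the median of all tested probes it was 0.06, against -0.0020 on the authors' scaled signals.

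SS18 joins the ATPase module and is known as the gene fused to SSX in synovial sarcoma. It has 5 probes on the array, more than any other of the 10 genes. Probe ILMN_1741782 gave signals of 501 and 565 with the mimic, against 443 and 414 with the NC oligo. The log2 values were 8.89 and 8.97 with the mimic, against 8.41 and 8.32 with the NC oligo. Both mimic arrays were well above both controls, and the gaps inside the groups were 0.08 for the mimic and 0.09 for the NC oligo. The log2 difference was 0.57 ± 0.14 (SE), a fold of 1.48. Other settings made it smaller: 0.48 with no background correction and 0.43 on the authors' scaled signals. Under median scaling it was 0.43, or 0.52 relative to the median of all tested probes.

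The remaining SS18 probes did not repeat a difference of that size. Probe ILMN_1805646, tied by the annotation to the same transcript record, gave signals of 401 and 529 with the mimic, against 565 and 476 with the NC oligo. Its log2 values were 8.52 and 8.85 with the mimic, against 8.82 and 8.56 with the NC oligo. Each group had a bright and a dim array, and the difference was -0.0050 ± 0.17 (SE). Probe ILMN_2359096, again on that record, was dim, with signals of 117 and 111 with the mimic, against 111 and 115 with the NC oligo. Those unscaled signals overlapped, and after normalization the values were 5.55 and 5.16 with the mimic, against 4.999 and 5.16 with the NC oligo. The normalized groups did not overlap, but mimic array 2 was nearly level with NC oligo array 2, at 5.162 against 5.159. The difference of 0.28 ± 0.17 (SE) shrank to 0.08 when piR-598 mimic replicate 1 was left out and to 0.09 with no background correction. Probe ILMN_1686957 was detected on 1 mimic array and no NC oligo array, and probe ILMN_1855116 on 1 NC oligo array and no mimic array, so neither was tested. Probe ILMN_1855116 is annotated to an accession that the RefSeq table used here does not list.

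**Figure D2:**
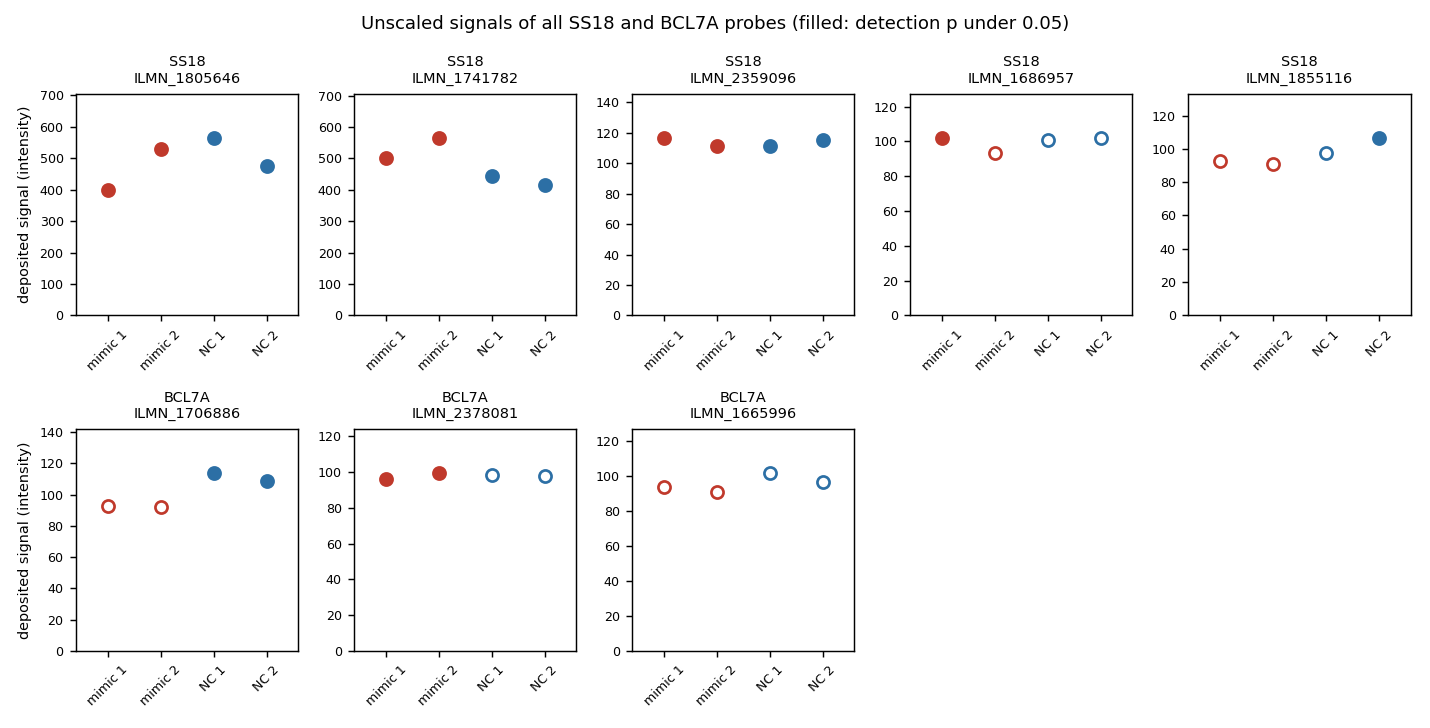
Deposited, unscaled signal of every SS18 and BCL7A probe on the 2 piR-598 mimic arrays (red) and the 2 NC oligo arrays (blue); each panel has its own axis from 0, and filled points have a detection p under 0.05. Among the SS18 probes only ILMN_1741782 is higher on both mimic arrays than on both controls, and the BCL7A probes lie close to the background, where detected and undetected points differ little in signal.

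The BCL7 proteins are small subunits that join the ATPase module. BCL7A was the only one of the 10 genes near the detection limit. Probe ILMN_1706886 gave signals of 92.6 and 92.1 with the mimic, against 114 and 109 with the NC oligo. Its detection p was 0.187 and 0.374 with the mimic, against 0.0026 and 0.0052 with the NC oligo. Neither mimic array had it well above background, so only a bound can be given there. With the background correction used for the comparison, the bound was 1.33-fold lower with the mimic. It allows for the detection limit, but not for the spread between arrays or the background setting. The bound is therefore not a smallest value across settings. As measured, the log2 means were 4.36 ± 0.06 with the mimic, against 4.99 ± 0.14 with the NC oligo (SD, n = 2). The log2 difference of -0.63 ± 0.15 (SE) shrank to -0.27 with an offset of 50, to -0.19 when no background was corrected and to -0.15 on the authors' scaled signals.

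A second BCL7A probe, ILMN_2378081, is tied to the same transcript record and had the opposite sign. Its signals were 96.2 and 99.4 with the mimic, against 98.4 and 97.9 with the NC oligo, which overlap. It was detected on both mimic arrays, with a detection p of 0.0494 and 0.0429, and on neither NC oligo array, at 0.187 and 0.229. The log2 values were 4.58 and 4.62 with the mimic, against 4.41 and 4.39 with the NC oligo. The bound was 1.01-fold higher with the mimic, again without allowing for the spread between arrays or the background setting. The 95% interval of the measured log2 difference ran from -0.12 to 0.52, on both sides of 0. Both BCL7A probes passed the detection filter only through the group in which they were brighter, so a difference was built into their being tested. The third probe, ILMN_1665996, was detected on no array, with signals of 93.6 and 91.0 with the mimic, against 102 and 96.5 with the NC oligo.

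Its relatives BCL7B and BCL7C were both detected on all 4 arrays by at least 1 probe. BCL7B gave signals of 317 and 315 with the mimic, against 389 and 358 with the NC oligo. On the normalized scale the values were 8.10 and 7.92 with the mimic, against 8.18 and 8.06 with the NC oligo, so the groups overlapped. The difference was -0.10 ± 0.15 (SE), and -0.02 without piR-598 mimic replicate 2. BCL7C had 3 tested probes, all on the same transcript record. Probe ILMN_2371147 had log2 values of 8.98 and 8.999 with the mimic, against 8.76 and 8.99 with the NC oligo. That gave a difference of 0.11 ± 0.15 (SE). Probe ILMN_1701165 had 6.19 and 5.95 with the mimic, against 6.29 and 6.06 with the NC oligo, a difference of -0.11 ± 0.16 (SE). The third probe, ILMN_1788844, was detected on 1 of 2 mimic arrays and 2 of 2 NC oligo arrays. Its values of 4.87 and 4.50 with the mimic, against 4.61 and 5.09 with the NC oligo overlapped, with a difference of -0.17 ± 0.20 (SE).

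Probes of the same gene can be set side by side, again as a description, since they come from the contrast with which the genes were selected. Of the 5 genes with 2 or more tested probes, 4 had probes of both signs: SS18, BCL7A, BCL7C and SMARCB1. For BCL7A the detection filter had built in a difference at each probe, in opposite directions, so nothing is read from its signs. The fifth, ACTL6A, had 1 probe at 0.07 and the other at 0.00030. Over the array as a whole, 49.1% of 2978 named genes with 2 or more tested probes had probes of both signs. The separation between the highest and the lowest probe, in log2 units, was 0.57 for SS18, 0.28 for BCL7C, 0.21 for SMARCB1 and 0.07 for ACTL6A. None is given for BCL7A, where each probe had only a bound in 1 of the groups.

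**Figure D3:**
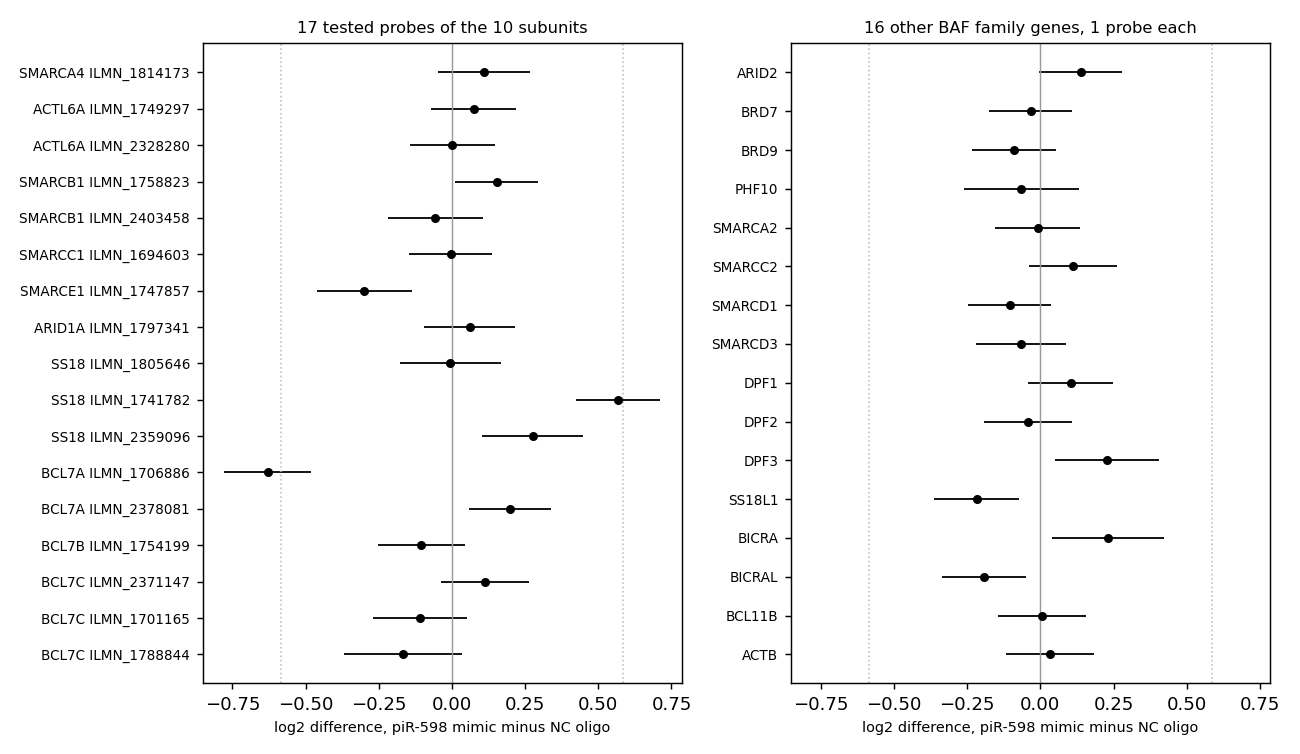
Log2 difference, piR-598 mimic minus NC oligo, with its standard error from limma (bars), for the 17 tested probes of the 10 subunits (left) and for 16 other BAF family genes at 1 probe each (right); dotted lines mark a 1.5-fold change. All but SS18 probe ILMN_1741782 and BCL7A probe ILMN_1706886 lie between -0.30 and 0.28 in the left panel, and the right panel spans -0.22 to 0.23.

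The rest of the BAF family was described from a list made by membership of the complexes. Of its 21 genes, 19 had a named probe and 16 a tested one. None of the 16 passed limma's test (0 called, smallest adjusted p = 0.935), and 0 had an unadjusted p under 0.05, against 4.84% of 11704 named genes at 1 probe each. Their median log2 difference was -0.02, with 7 positive and 9 negative, against -0.0075 over all named genes. The 95% interval of the difference excluded a 1.5-fold change both up and down for 14 of the 16, and a 2-fold change for all 16. Of the 11704 named genes, 8911 had an interval within 1.5-fold and 11639 within 2-fold, so these counts are not particular to the family. ARID2 is among the 14 by 1 probe only. The interval of its other tested probe ran from -0.92 to -0.01. The groups did not overlap for 6 of the 16, against 34.5% of all named genes tested. Counted over all 22 tested probes of these genes, 8 differences were positive and 14 negative. Groups did not overlap for 9 of the 22, 2 higher and 7 lower with the mimic. Over all tested probes the shares were 17.1% higher and 17.6% lower.

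The paralogs that can take the place of a listed subunit differed in whether they were detected. ARID1B, the alternative to ARID1A, had 2 probes, of which 1 was detected on 1 array and the other on none. ACTL6B, the neuronal counterpart of ACTL6A, was detected on 1 array only, an NC oligo array, with a detection p of 0.0325. SMARCA2, the alternative ATPase, was detected on all 4 arrays by 1 of its 2 probes. That SMARCA2 probe gave signals of 425 and 476 with the mimic, against 535 and 481 with the NC oligo, and its log2 difference was -0.0087 ± 0.15 (SE). The 95% interval of that difference ran from -0.34 to 0.32. SMARCC2, the partner and paralog of SMARCC1, had 0.11 ± 0.15 (SE), and -0.0013 without piR-598 mimic replicate 1. A second SMARCC2 probe was at -0.01 ± 0.22 (SE).

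SS18L1, known as CREST, takes the place of SS18 in the neuronal form. Its tested probe gave signals of 292 and 344 with the mimic, against 408 and 389 with the NC oligo. The normalized log2 values were 7.94 and 8.10 with the mimic, against 8.27 and 8.21 with the NC oligo, so both mimic arrays were lower. The difference was -0.22 ± 0.14 (SE) and was not called (limma adjusted p = 0.935). DPF1 and DPF3 are further subunits of the neuronal form. DPF1 was detected on all 4 arrays and had 0.10 ± 0.15 (SE). DPF3 was detected on 2 of 2 mimic arrays and 1 of 2 NC oligo arrays and had 0.23 ± 0.18 (SE). Leaving out NC oligo replicate 1 took DPF3 to -0.0033, and leaving out NC oligo replicate 2 took it to 0.46. DPF2, the widely expressed relative, had -0.04 ± 0.15 (SE).

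The markers of the other complex forms were also transcribed, without a call. For the PBAF form, ARID2 was detected by both of its probes. Probe ILMN_1795247 had log2 values of 5.55 and 5.67 with the mimic, against 5.46 and 5.49 with the NC oligo, a difference of 0.14 ± 0.14 (SE). Probe ILMN_2182335 had 4.84 and 5.39 with the mimic, against 5.71 and 5.46 with the NC oligo. Both mimic arrays were below both controls there, with array 1 far lower, and the difference was -0.47 ± 0.20 (SE, limma adjusted p = 0.895). That probe was the only 1 of the 22 tested probes of the list with an unadjusted p under 0.05. The 2 probes carry the same transcript record and differ in sign. BRD7 had -0.03 ± 0.14 (SE) at 1 probe. Its other probe had -0.14 ± 0.14 (SE), with both mimic arrays below both controls. PHF10 had -0.07 ± 0.20 (SE). Without piR-598 mimic replicate 1 PHF10 was at -0.36, and without piR-598 mimic replicate 2 at 0.23. PBRM1, and the core subunit SMARCD2, had no named probe and were not analysed here.

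In the non-canonical form, BRD9 gave signals of 1072 and 1058 with the mimic, against 1251 and 1281 with the NC oligo. Its log2 difference was -0.09 ± 0.14 (SE). BICRA had 0.23 ± 0.19 (SE), and this was -0.03 without NC oligo replicate 1, the array on which it was lowest. BICRAL had -0.19 ± 0.14 (SE), with both mimic arrays lower than both controls. SMARCD1, a core subunit, had -0.10 ± 0.14 (SE) and its paralog SMARCD3 had -0.07 ± 0.15 (SE). A second tested SMARCD3 probe had -0.13 ± 0.14 (SE), with both mimic arrays lower than both controls. BCL11B was at 0.0046 ± 0.15 (SE), with the opposite sign, relative to the median of all tested probes, under median scaling, cyclic loess and the authors' scaled signals. BCL11A was detected by none of its 3 probes on any array. ACTB, which encodes the actin that sits in the ATPase module and also builds the cytoskeleton, had 0.03 ± 0.15 (SE) at its probe of highest mean signal.

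Other chromatin regulators give the scale for comparison. Among the ISWI remodellers 0 of 7 measured genes were called in limma, among the NuRD subunits 0 of 13, among the INO80, SRCAP and TIP60 subunits 0 of 22, and among Polycomb genes 0 of 18. At an unadjusted p under 0.05 there were 0, 0, 2 and 1 genes in the same order, against 4.84% of all named genes. Their median log2 differences ran from -0.03 to 0.03. The genes of smallest unadjusted p were ACTR6 with -0.70 ± 0.19 (SE) and YY1 with -0.42 ± 0.14 (SE) for INO80, SRCAP and TIP60, and BMI1 with -0.51 ± 0.15 (SE) and SUZ12 with -0.35 ± 0.18 (SE) for Polycomb. For NuRD they were RBBP4 with -0.27 ± 0.16 (SE) and CDK2AP1 with -0.21 ± 0.14 (SE), and for ISWI they were SMARCA1 with -0.20 ± 0.25 (SE) and BPTF with 0.08 ± 0.16 (SE). The limma adjusted p was at least 0.895 for each of these 8 genes.

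Leaving out single arrays changed the sign of some differences. When each of the 4 arrays was left out in turn, 9 of the 17 probes changed sign in at least 1 of the 4 fits, as did 10 of the 16 other BAF family genes. The share over all tested probes was not computed, and a small difference turns sign easily. Nothing particular to the subunits is therefore read from these counts. The difference of SS18 probe ILMN_1741782 ran from 0.52 to 0.61 and that of BCL7A probe ILMN_1706886 from -0.73 to -0.53. BCL7A probe ILMN_2378081 stayed between 0.18 and 0.22, and SMARCB1 probe ILMN_1758823 between 0.12 and 0.19. These are the 4 probes whose difference was larger than the gap between replicate arrays, which fixes that their sign cannot turn when 1 array is removed. Processing moved all 4 outside these ranges. On the authors' scaled signals, ILMN_1741782 was at 0.43 and ILMN_1706886 at -0.15. ILMN_2378081 was at 0.07 with no background correction and 0.08 with an offset of 50. ILMN_1758823 was at 0.08 on the authors' scaled signals. Under median scaling it was at 0.02, or 0.10 relative to the median of all tested probes.

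**Figure D4:**
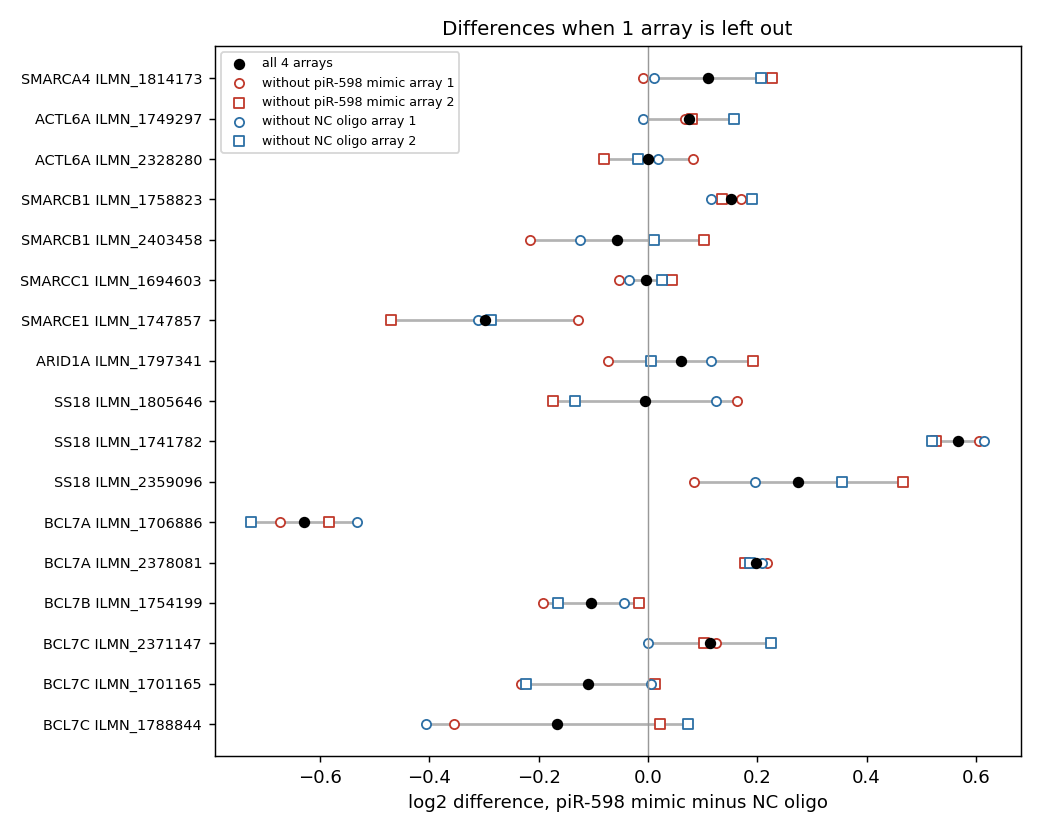
Log2 difference, piR-598 mimic minus NC oligo, of the 17 tested BAF subunit probes with all 4 arrays (black) and with 1 array left out (open symbols; red, a mimic array left out; blue, an NC oligo array left out); grey lines span the lowest and highest value. For 9 of the 17 probes the open symbols fall on both sides of 0. SS18 probe ILMN_1741782 runs from 0.52 to 0.61. Its difference was larger than the gap between the replicate arrays of either group, which fixes its sign here.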

How the data were processed

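Per the file headers, the authors deposited unscaled signal intensities, each followed by a detection p-value; GenomeStudio 2011.1 was used, per the submitters' processing notes. Their second table holds these intensities multiplied by 1 constant per array (1.07 and 1.02 for the mimic arrays, 0.951 and 0.970 for the NC oligo arrays) and served as an alternative. Groups and replicate numbers came from sample titles.

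Signals were corrected by normexp with negative controls inferred from the detection p (offset 16), quantile normalized and put on a log2 scale with neqc (limma 3.58.1 under R 4.3.3). The 20188 of 47318 probes detected (p under 0.05) on 2 or more arrays were fitted with lmFit and eBayes, two-sided, with Benjamini-Hochberg adjustment. Only this fit and its adjustment were tried on simulated log2 values. The background correction, normalization, detection filter and bound were not. Where a whole group was undetected, the bound used, per array, the lowest detected value or the probe's measured one, whichever was higher (log2 4.57 and 4.60 on the mimic arrays, 4.58 and 4.60 on the NC oligo arrays).

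Symbols came from the platform annotation: 30112 probes had 1 symbol, 8 several and 17198 none, and 30073 matched the RefSeq table of assembly GRCh38.p14. In lists, the detected probe with the highest mean stood for the gene. The 10 genes, the lists and the alternatives were chosen with earlier results of these arrays known. Named are the 10 subunits and every detected gene of the other BAF family list. The 2 genes of smallest unadjusted p in each of 4 comparison lists are also named. The second ARID2, SMARCC2, BRD7 and SMARCD3 probes were added after their values were seen.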

Additional observations from a re-analysis of the deposited data

How the results depend on the processing

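Alternatives were median scaling, cyclic loess or the authors' scaled signals in place of quantile normalization, an offset of 50 or uncorrected background, every probe or those with a detection p under 0.01 throughout, an intensity trend, and leaving out each array. Under each of them limma called 0 BAF subunit probes and 0 other BAF family genes. Over all tested probes it called 0 in every setting except when an array was left out, where the count ran from 0 to 3 (1 without piR-598 mimic replicate 2 and 3 without NC oligo replicate 2). The labels give both groups the numbers 1 and 2 but name nothing shared. Same-numbered arrays deviated together with r = 0.15, across probes. With the replicate block, 0 probes were called, and 1438 had an unadjusted p under 0.05, against 1102 without it. Median scaling moved the median of all tested probes to -0.09. Relative to the median in each setting, 1 of the 17 subunit probes changed sign in at least 1 of the 5 background or scaling settings. That was the detected ARID1A probe. Taken as estimated, without reference to the median, 5 of the 17 changed sign in at least 1 of these settings. With the stricter detection filter 14 subunit probes remained, and the BCL7A probes were not among them. Groups of 2 arrays limit precision, and for dim probes the background setting sets the size of a difference; the cause was not tested.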
